A study of Mus musculus with 12 samples.

Results

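Fkbp5, Tsc22d3, Zbtb16, Pdk4 and Ddit4 are known in many tissues as genes that the glucocorticoid receptor (GR) induces directly. They are 5 of the 54838 genes in the count table of the mouse ileum examined here. They were chosen for that known role, with earlier results of these data known, and matched to their rows by Ensembl identifier. All 5 had enough reads to be tested. Adult female wild-type C57BL/6J mice drank either normal water or water with 25 mM ZnSO4 over 7 days. They were then injected with 200 µg of dexamethasone (Dex), a synthetic glucocorticoid, in PBS or with PBS alone, and the ileum was taken 2 h later. The 4 groups, water + PBS, water + Dex, ZnSO4 + PBS and ZnSO4 + Dex, held 3 mice each, so that every mouse had received an injection and none was untouched. Each library came from the whole washed ileum of 1 mouse. The question was what Dex does to these genes and whether ZnSO4 in the drinking water alters their level or their response.

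Glucocorticoids enter cells and bind GR, which waits in the cytoplasm in a complex with heat shock protein chaperones. The bound receptor moves to the nucleus, where it binds DNA at palindromic elements, often far from the start site, and raises transcription of its targets within hours. The products of the 5 genes act at different points. Fkbp5 encodes FKBP51, a co-chaperone that lowers the affinity of GR for its hormone and so closes a feedback loop. Tsc22d3 encodes GILZ, which restrains NF-κB and AP-1 and carries part of the anti-inflammatory action of glucocorticoids. Zbtb16 encodes PLZF, a zinc finger transcription factor of the BTB family. Ddit4 encodes REDD1, an inhibitor of the growth kinase complex mTORC1. Pdk4 encodes a kinase that switches off pyruvate dehydrogenase and so spares glucose, as in fasting.

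All 5 genes are protein coding and lie on the minus strand of the GRCm38 assembly. Fkbp5 (ENSMUSG00000024222) spans chr17:28399094-28517527 and has 9468 exonic bases. Tsc22d3 (ENSMUSG00000031431) spans chrX:140539528-140600659 with 4341 exonic bases, and Zbtb16 (ENSMUSG00000066687) spans chr9:48654297-48836222 with 5283. Pdk4 (ENSMUSG00000019577) lies at chr6:5483351-5496309 with 3511 exonic bases, and Ddit4 (ENSMUSG00000020108), the shortest, at chr10:59949669-59951834 with 1755. The exons of none of them overlapped an exon of another gene on either strand, and at most 2.06% of their 31-base stretches, in Fkbp5, occurred in transcripts of other genes.

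Because the 5 genes moved together, the DNA upstream of their RefSeq start sites (GRCm38.p6) is shown, written 5′ to 3′ on the minus strand and only as far as the first base that is annotated as exon. RefSeq gave 6 promoters for 4 of the genes, 3 of them for Tsc22d3. Capitals mark a GR half-site (AGAACA or TGTTCT) or a CCAAT box (CCAAT or ATTGG). The stretches are chr17:28486150-28486399 for Fkbp5, chrX:140600660-140600772 for the most upstream start of Tsc22d3, chr6:5496310-5496528 for Pdk4 and chr10:59951835-59952020 for Ddit4. The promoters of the other Tsc22d3 starts held neither motif and are not shown.
Fkbp5: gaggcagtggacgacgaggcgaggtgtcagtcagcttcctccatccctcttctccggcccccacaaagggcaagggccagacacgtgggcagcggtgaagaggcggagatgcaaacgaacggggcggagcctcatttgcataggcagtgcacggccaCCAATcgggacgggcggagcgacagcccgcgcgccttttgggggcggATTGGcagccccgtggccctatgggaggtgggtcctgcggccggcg
Tsc22d3: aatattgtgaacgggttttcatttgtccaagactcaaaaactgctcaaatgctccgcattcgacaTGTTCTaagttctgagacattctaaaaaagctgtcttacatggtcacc
Pdk4: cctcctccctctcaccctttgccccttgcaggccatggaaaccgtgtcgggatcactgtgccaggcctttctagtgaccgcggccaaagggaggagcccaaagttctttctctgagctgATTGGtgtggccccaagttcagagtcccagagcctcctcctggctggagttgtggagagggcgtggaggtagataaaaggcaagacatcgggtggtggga
Ddit4: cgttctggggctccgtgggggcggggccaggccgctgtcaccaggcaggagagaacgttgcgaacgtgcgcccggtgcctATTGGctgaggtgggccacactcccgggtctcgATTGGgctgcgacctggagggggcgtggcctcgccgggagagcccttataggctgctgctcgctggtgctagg

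Both DNA strands of the 300-base promoter windows, from 250 bases before to 50 after the start, were searched. The full palindrome, AGAACA and TGTTCT separated by 3 bases, was in 0 of the 6 promoters, and 0.00913% of all 32851 promoters held it. Its core, ACANNNTGT, was also in 0 of 6, against 6.85% of all promoters. A single half-site was in 1 of 6, at position -185 of the most upstream Tsc22d3 start, whereas 19% of all promoters held one. CCAAT boxes were in 3 of 6 promoters, those of Fkbp5 (positions -93 and -46), Pdk4 (-131) and Ddit4 (-170 and -137), against 37.4% of all. A match describes these letters only, and the elements of these genes may lie outside the windows.

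Levels are given as normalised read counts, which are read counts scaled to a common library size, in the order of mice 1, 2 and 3 of each group. Total counts per library lay between 10760132 and 11827487. The log2 fold change (LFC), its standard error (SE) and its 95% interval came from 1 quasi-likelihood model of all 15938 genes with enough reads, and a gene was called regulated where its Benjamini-Hochberg adjusted p was under 0.05 and its LFC above 0.8 in size. Markers of ileal tissue were high in every library, with summed levels of 6 enterocyte markers between 6300 and 15494 CPM (read counts scaled to library size). The B cell markers, 7 genes, differed most between mice of 1 group, from 10.8 to 439 CPM in ZnSO4 + PBS and from 26.9 to 581 CPM in water + PBS. In whole tissue, fewer cells of a type and less RNA per cell cannot be told apart.

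Dex raised all 5 genes, with water and with ZnSO4. In water mice 5 of 5 were upregulated, where 2.79% of all genes tested were, and in ZnSO4 mice 5 of 5, where 3.41% were. Every Dex mouse lay above every PBS mouse of the same drink for all 5 genes, a pattern shown by 15.2% of all genes in water mice and by 14.2% in ZnSO4 mice. Gaps between Dex and PBS mice given below pool both drinks. The share of all genes with such a gap was not counted. The median LFC of the 5 genes was 3.10 in water mice and 3.34 in ZnSO4 mice, whereas the medians of all genes tested were -0.01 and 0.01. The groups of the 2 drinks share no library, so these are separate comparisons. An unadjusted p under 0.05 was found for 3623 of all 15938 genes with Dex in water mice and for 4196 in ZnSO4 mice. The markers of cell types that passed the test with Dex are named because their calls were seen. Slc10a2, the ileal bile acid transporter and 1 of 2 distal enterocyte markers, rose with Dex by an LFC of 0.92 (adjusted p = 0.024) in water mice and 1.16 (adjusted p = 0.0052) in ZnSO4 mice. The 2 markers summed to 6218 to 7299 CPM in water + PBS, 7617 to 9299 in water + Dex, 4588 to 8595 in ZnSO4 + PBS and 4976 to 7884 CPM in ZnSO4 + Dex mice. Kdr, a receptor of endothelial cells, fell with Dex by 0.96 (adjusted p = 0.00037) in water mice and by 0.95 (adjusted p = 3e-04) in ZnSO4 mice on the log2 scale. Il7r, a cytokine receptor in the innate lymphoid and natural killer list, rose in ZnSO4 mice (LFC 1.05; adjusted p = 0.049). Of 6 T cell markers edgeR called 0 with Dex, with 1 in water and 4 in ZnSO4 mice at an unadjusted p under 0.05, and DESeq2 called 0 in water mice and 2 lower in ZnSO4 mice. The part of these cells in the rise of the 5 genes was not tested.

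**Figure D1:**
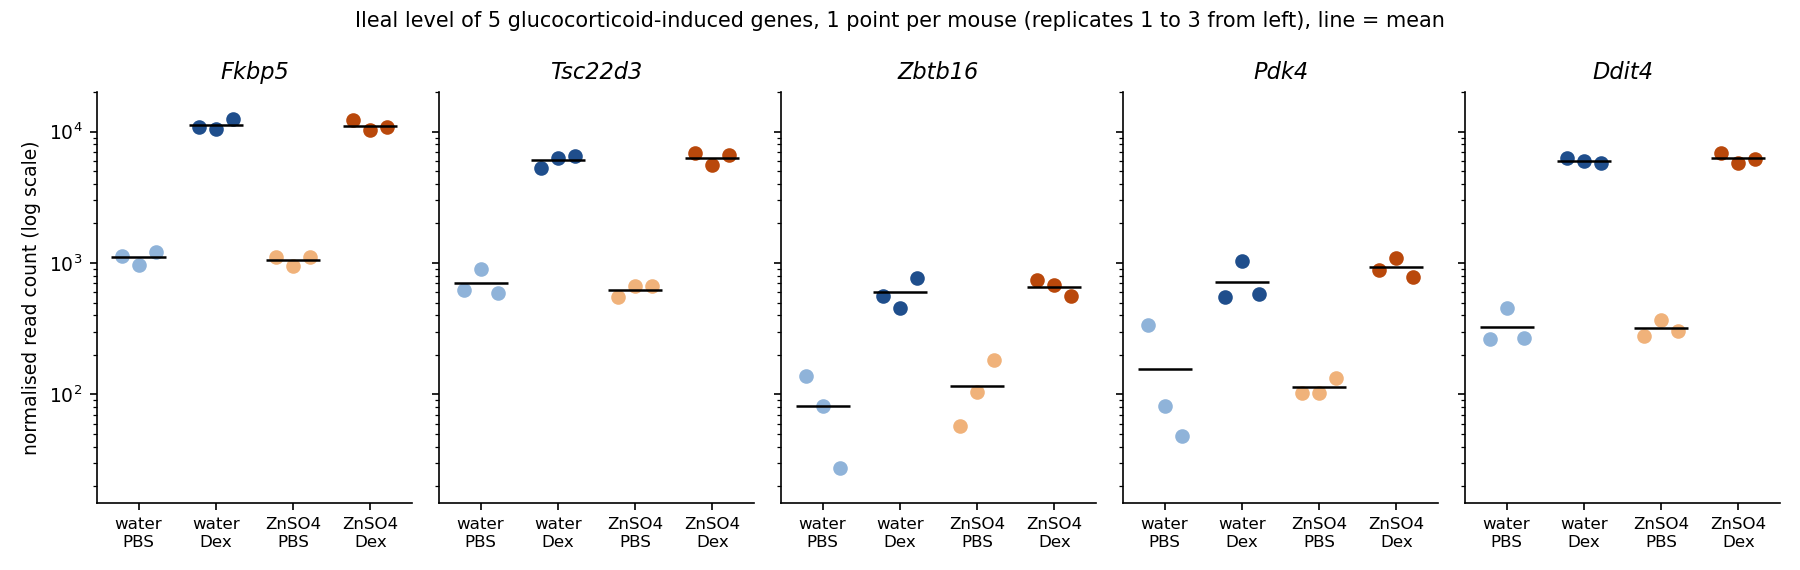
Normalised read count (vertical axis, log scale) of the 5 genes in each of the 12 mice, by drink and injection; points are mice 1 to 3 of a group from left to right and lines are group means. With each drink every Dex mouse is above every PBS mouse in all 5 panels, a pattern of 15.2% of all genes in water and 14.2% in ZnSO4 mice. The PBS mice of Zbtb16 and the water + PBS mice of Pdk4 are the most spread.

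Fkbp5, the gene of the co-chaperone FKBP51, was about 10 times higher after Dex with either drink. The water + PBS mice had 1129, 969 and 1222 normalised counts, and the water + Dex mice had 10754, 10423 and 12396. The ZnSO4 + PBS mice had 1116, 950 and 1116, and the ZnSO4 + Dex mice had 12209, 10263 and 10807. The groups fell into a PBS level and a Dex level with nothing between them, and the lowest Dex mouse stood 8.40 times above the highest PBS mouse. Dex raised Fkbp5 by an LFC of 3.34 (SE 0.13) in water mice, a fold of 10.1 with a 95% interval from 8.33 to 12.3 (adjusted p = 2.1e-07). In ZnSO4 mice the LFC was 3.39 (SE 0.13; adjusted p = 1.3e-07). Fkbp5 was also the least variable of the 5 genes in PBS mice, with a coefficient of variation (CV) of 11.6% in water + PBS mice and 9.05% in ZnSO4 + PBS mice.

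Tsc22d3, the gene of GILZ, behaved much like Fkbp5. Its water + PBS mice had 622, 903 and 593 normalised counts, and its water + Dex mice 5274, 6290 and 6553. With ZnSO4 the PBS mice had 550, 666 and 665, and the Dex mice 6908, 5540 and 6589. Again PBS and Dex mice did not overlap, with a gap of 5.84 times between the nearest mice. The LFC was 3.10 (SE 0.17; adjusted p = 1.1e-06) in water mice, a fold of 8.56, and 3.34 (SE 0.17; adjusted p = 6.2e-07) in ZnSO4 mice, a fold of 10.1. The PBS mouse with the highest Tsc22d3, mouse 2 of water + PBS, also had the highest B cell markers, 581 CPM against 166 and 26.9 CPM in the other mice of its group. It also led its group in summed markers of T cells (141 CPM), innate lymphoid and natural killer cells (50.7), macrophages (107) and endothelium (117). The same held for adipocytes (141 CPM) and enterocytes (11708 CPM), whereas its Paneth cell, goblet cell and smooth muscle sums were the lowest. Of the 7 B cell markers 0 were regulated by Dex with either drink by edgeR or DESeq2, 0 had an unadjusted p under 0.05, and their sums were 13.7 to 210 CPM in water + Dex and 11.4 to 62.6 CPM in ZnSO4 + Dex mice. After Dex, mouse 1 had the most B cell markers with water and the lowest Tsc22d3 of its group. With ZnSO4, mouse 3 had the most and the middle level of Tsc22d3. With the B cell markers as a covariate the LFC of Tsc22d3 was 3.12 in water mice and 3.36 in ZnSO4 mice. The part of B cells or of the other cell types in the level of Tsc22d3 was not tested.

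Ddit4, the gene of the mTORC1 inhibitor REDD1, had the largest LFC of the 5. In water + PBS mice it had 263, 453 and 268 normalised counts, and in water + Dex mice 6240, 5986 and 5755. ZnSO4 + PBS mice had 280, 369 and 307, and ZnSO4 + Dex mice 6885, 5729 and 6184. The lowest Dex mouse was 12.7 times above the highest PBS mouse, the widest gap among the 5 genes. Dex raised Ddit4 by an LFC of 4.19 (SE 0.20) in water mice, a fold of 18.3 with an interval from 13.4 to 24.9 (adjusted p = 5.2e-07), and by 4.30 (SE 0.20) in ZnSO4 mice, a fold of 19.7 (adjusted p = 4.2e-07). By LFC it ranked 20 of 15938 genes in water mice and 28 in ZnSO4 mice. The spread was smaller after Dex, with a CV of 33.0% in water + PBS and 4.05% in water + Dex mice. As for Tsc22d3, mouse 2, the mouse with the most B cell markers, was the highest of its PBS group with each drink. In both PBS groups mouse 2 also had the highest summed markers of T cells, innate lymphoid and natural killer cells, macrophages and endothelium. For Tsc22d3 with ZnSO4 mice 2 and 3 were nearly equal, at 666 and 665 counts, with 439 and 10.8 CPM of B cell markers. After Dex, the mouse with the most B cell markers had the highest Ddit4 with water and the middle level with ZnSO4. With the B cell markers as a covariate the LFC of Ddit4 was 4.32 in water and 4.42 in ZnSO4 mice. The part of B cells or of the other cell types in these levels was not tested.

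Zbtb16, the gene of the transcription factor PLZF, was expressed at a low level before Dex. Its counts were 137, 82.3 and 27.6 in water + PBS mice, and 564, 456 and 772 in water + Dex mice. They were 57.5, 105 and 183 in ZnSO4 + PBS mice, and 741, 683 and 556 in ZnSO4 + Dex mice. The PBS mice thus differed among themselves by 4.98 times with water and 3.19 times with ZnSO4, yet all lay below the Dex mice, the nearest 2 being 2.49 times apart. The LFC was 2.86 (SE 0.49; adjusted p = 0.0029) in water mice, a fold of 7.25 with an interval from 3.47 to 15.2. In ZnSO4 mice it was 2.51 (SE 0.47; adjusted p = 0.0040), a fold of 5.72 with an interval from 2.79 to 11.7. The CV of 66.6% in water + PBS mice compares with the 10.9% that counting reads alone would give. The 8 markers of innate lymphoid and natural killer cells, among which PLZF is known, summed to 25.2 to 50.7 CPM over the 12 libraries, and 0 of the 6 tested were regulated by Dex in water mice with edgeR, although 3 had an unadjusted p under 0.05 and DESeq2 called 1. In ZnSO4 mice 1 of 6, Il7r, a cytokine receptor chain, rose by an LFC of 1.05 (adjusted p = 0.049), a gene named here because its call was seen. The part of these cells in the Zbtb16 result was not tested.

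Pdk4, the gene of the pyruvate dehydrogenase kinase, was the least certain of the 5. Its counts were 339, 81.3 and 48.5 in water + PBS mice, and 555, 1028 and 584 in water + Dex mice. In ZnSO4 mice they were 103, 103 and 134 with PBS, and 892, 1096 and 788 with Dex. Mouse 1 of water + PBS stood 6.99 times above mouse 3 of its group, and the lowest Dex mouse was only 1.64 times above mouse 1. Dex raised Pdk4 by an LFC of 2.21 (SE 0.54; adjusted p = 0.023) in water mice, a fold of 4.63 with an interval from 2.04 to 10.5. In ZnSO4 mice the LFC was 3.03 (SE 0.56; adjusted p = 0.0035), a fold of 8.15 with an interval from 3.50 to 19.0. The water result rested on single mice. Without mouse 1 of water + PBS the LFC was 3.48, and the call was lost without mouse 2 (adjusted p = 0.080) or mouse 3 (adjusted p = 0.051) of water + PBS and without mouse 2 of water + Dex (adjusted p = 0.093). It was also lost when only the 2 groups compared were fitted (adjusted p = 0.082) or when the LFC was tested against 0.8 (adjusted p = 0.26). Over all 23 alternatives the adjusted p ran from 0.00017 to 0.26, and the LFC remained above 0.

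Among the water + PBS mice, Pdk4 and Zbtb16 shared an order, both being highest in mouse 1 and lowest in mouse 3. In ZnSO4 + PBS both were highest in mouse 3, but Pdk4 had nearly equal levels in mice 1 and 2, within counting error. Angptl4, which encodes a secreted inhibitor of lipoprotein lipase and is another known glucocorticoid target, was highest in the same mice, with 576, 393 and 145 normalised counts in water + PBS and 344, 385 and 921 in ZnSO4 + PBS mice. Fam107a had 32.1, 24.1 and 15.2 normalised counts in water + PBS and 23.6, 19.2 and 25.9 in ZnSO4 + PBS mice, so that it was highest in the same mice but lowest in mouse 2 with ZnSO4. Angptl4 and Fam107a were named because their values over these same libraries were among the nearest to those of Zbtb16 and Pdk4. A like order of mice was thus in part fixed by that choice. Fkbp5 was lowest in mouse 2 of both PBS groups. No mouse was the highest of its group for all 5 genes. The nearest was mouse 1 of ZnSO4 + Dex, the highest for 4 of 5, and mouse 1 of ZnSO4 + PBS was the lowest for 4 of 5.

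**Figure D2:**
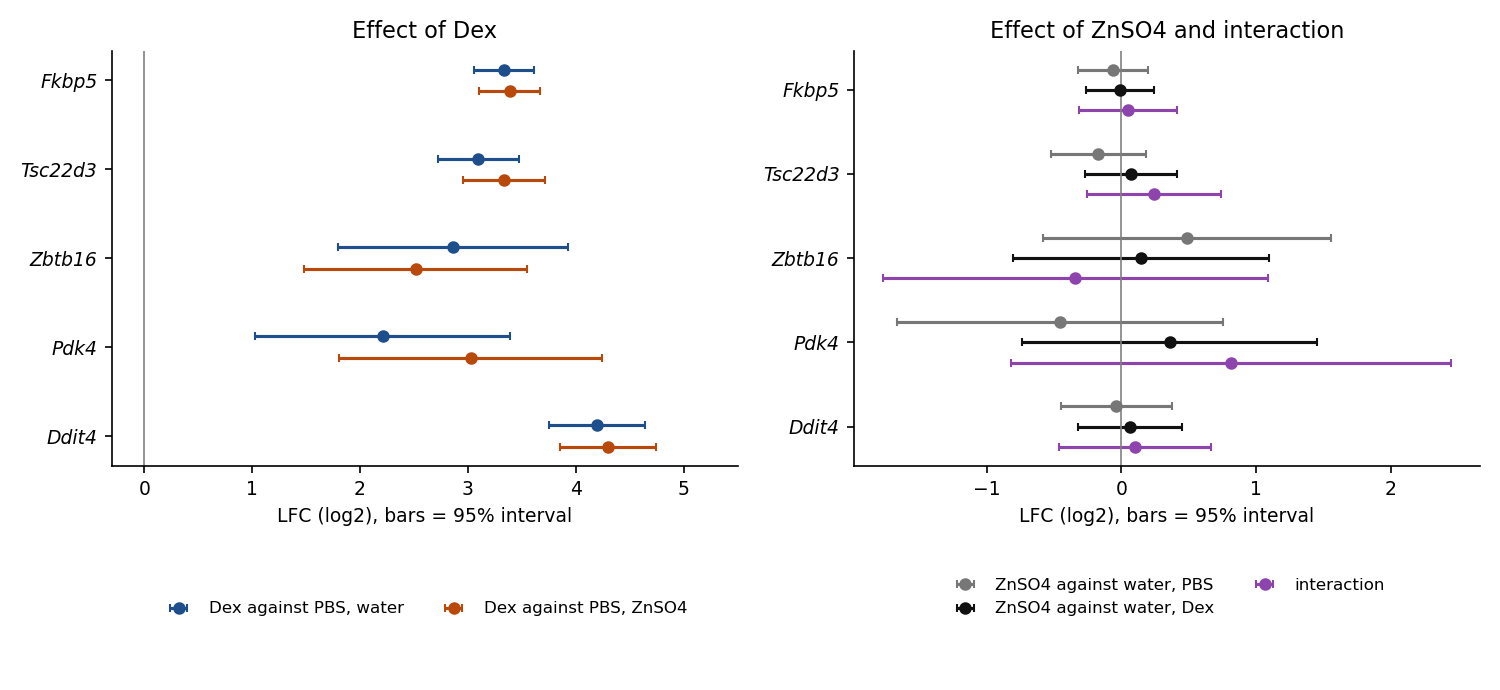
LFC (horizontal axis, log2) of the 5 genes with 95% intervals, for Dex against PBS with each drink (left) and for ZnSO4 against water with each injection and the interaction (right). Each interval for Dex lies above 0, and all of those for ZnSO4 and the interaction include 0, the widest being those of Pdk4 and Zbtb16.

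No change of these genes with ZnSO4 was detected beyond the spread between mice. In PBS mice 0 of the 5 were regulated by ZnSO4 with edgeR, where 1.70% of all genes were, and the intervals of the LFC were -0.32 to 0.20 for Fkbp5, -0.53 to 0.19 for Tsc22d3 and -0.45 to 0.37 for Ddit4. Those of the low genes were far wider, -0.58 to 1.56 for Zbtb16 and -1.67 to 0.75 for Pdk4, which take in a level of Zbtb16 2 times higher and a level of Pdk4 2 times lower with ZnSO4. After Dex, 0 of 5 passed the test of ZnSO4 against water, against 1.90% of all genes, with intervals from -0.27 to 0.24 for Fkbp5, -0.27 to 0.42 for Tsc22d3, -0.32 to 0.45 for Ddit4, -0.81 to 1.10 for Zbtb16 and -0.74 to 1.46 for Pdk4. Averaged over both injections, 0 of 5 were regulated, against 2.71% of all genes. In each of these 3 comparisons 0 of 5 had an unadjusted p under 0.05, and DESeq2 also called 0. Of all 15938 genes, 3161 had an unadjusted p under 0.05 in PBS mice, 3048 in Dex mice and 4537 over both injections. Mice of both drinks overlapped for all 5 genes with each injection. The share of all genes with such an overlap was not counted, so this describes these mice only.

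The response to Dex was compared between the drinks by the interaction of ZnSO4 and Dex, which is the LFC of Dex in ZnSO4 mice minus that in water mice. It was 0.05 for Fkbp5 (interval -0.31 to 0.41), 0.10 for Ddit4 (-0.46 to 0.67) and 0.24 for Tsc22d3 (-0.25 to 0.74). For Zbtb16 it was -0.34 (-1.77 to 1.09) and for Pdk4 0.82 (-0.82 to 2.45). None of the 5 passed the test with edgeR, 0 of 5 had an unadjusted p under 0.05 and DESeq2 called 0. Of all 15938 genes tested 0% passed. An unadjusted p under 0.05 was found for 794, about the share that this threshold lets pass where no gene differs. For Fkbp5 the 95% interval of the fold induction with ZnSO4 ran from 0.805 to 1.33 times that with water, whereas for Pdk4 it ran from 0.567 to 5.47 times. Without mouse 1 of water + PBS the Pdk4 interaction was -0.47 in place of 0.82.

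Some markers of cell types passed the test between the drinks, and they are named because their calls were seen. Of 6 T cell markers, 1 was lower with ZnSO4 in PBS mice (Cd8a) and 3 in Dex mice (Cd3d, Cd3e and Cd8a). The summed T cell markers were 77.6 to 141 CPM in water + PBS and 36.7 to 79.5 CPM in ZnSO4 + PBS mice, and 73.4 to 96.9 CPM against 40.1 to 42.4 CPM after Dex. Of 6 innate lymphoid and natural killer markers tested, Il2rb was lower in PBS mice (LFC -1.32; adjusted p = 0.048). Of 3 plasma cell markers, Mzb1 was lower in Dex mice (LFC -1.15; adjusted p = 0.037). Of 3 goblet cell markers, Muc2, the main mucin, was higher with ZnSO4 in PBS mice (LFC 0.88; adjusted p = 0.033) and in Dex mice (LFC 0.83; adjusted p = 0.042). Of 3 skeletal muscle markers tested, 1 was called, Acta1, the actin of skeletal muscle, which had 34.8 to 139 CPM in water + PBS against 3.34 to 6.92 CPM in ZnSO4 + PBS mice (LFC -4.10; adjusted p = 0.0014). After Dex it had 149 to 172 CPM against 2.79 to 8.11 CPM (LFC -4.77; adjusted p = 0.00077). The other 2 did not pass the test with either injection, and 1 further marker had no reads in any group. The part of these shifts in the values of the 5 genes was not tested.

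Levels can be set against each other only per length, as reads per kilobase of exon scaled to library size (RPKM). In water + PBS mice the order was Ddit4 (16.4 ± 5.42, SD, n = 3), Tsc22d3 (14.3 ± 3.47), Fkbp5 (10.3 ± 1.19), Pdk4 (3.91 ± 3.98) and Zbtb16 (1.37 ± 0.912). After Dex in water mice it was the same, Ddit4 at 300.2 ± 12.2 RPKM, Tsc22d3 at 122 ± 13.7, Fkbp5 at 104 ± 9.81, Pdk4 at 18.1 ± 6.64 and Zbtb16 at 9.93 ± 2.67. With ZnSO4 the PBS mice had 16.0 ± 2.28 RPKM of Ddit4, 12.7 ± 1.36 of Tsc22d3, 9.85 ± 0.891 of Fkbp5, 2.84 ± 0.451 of Pdk4 and 1.92 ± 1.06 of Zbtb16. Their Dex counterparts had 314 ± 29.2, 128 ± 14.5, 103 ± 9.32, 23.2 ± 3.92 and 11.0 ± 1.57 RPKM in the same order of genes. Neighbours whose means differed by less than their SDs together were Ddit4 and Tsc22d3 in both PBS groups, Tsc22d3 and Fkbp5 in both groups of water mice, and Pdk4 and Zbtb16 in all groups but ZnSO4 + Dex. After Dex, Ddit4 stood well above Tsc22d3 with either drink. The lengths count all annotated exons, which lowers the RPKM of genes such as Fkbp5 with 15 transcripts if few of them are used.

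By the root mean square (RMS) difference of centred log2 CPM over the 12 libraries, Tsc22d3 was the gene nearest to Fkbp5, and Fkbp5 the one nearest to Tsc22d3 (RMS 0.25). The next for both was Adh6b, which had at most 1 read in any PBS mouse and 18.5 ± 5.71 normalised counts in ZnSO4 + Dex mice, so its pattern rests on few reads. Angptl4 (RMS 0.45) and Fam107a (0.49) were nearest to Zbtb16, and Fam107a (0.50), Zbtb16 (0.55) and Angptl4 (0.59) to Pdk4. Ddit4 was nearest to Asb11 (0.46), which had 0.968 ± 0.951 counts in water + PBS and 53.4 ± 15.9 in water + Dex mice, and to Hif3a (0.49). The third genes were Gm15889 for Fkbp5 (0.28), Gm11827 for Tsc22d3 (0.32) and Ddit4 (0.50), and Prkag3 for Zbtb16 (0.54). With a larger prior count, 10 in place of 2, 1 to 2 of the 3 nearest genes of each gene were the same, so the lists depend on how low counts are treated.

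The close relatives of the 5 genes mostly had LFCs near 0, against a background of 1.64% of all genes downregulated by Dex in water mice and 2.40% in ZnSO4 mice beside the upregulated shares given above. Of 13 other FKBP genes tested, a family of peptidyl-prolyl isomerases, 0 were regulated by Dex with either drink, with 2 in water and 1 in ZnSO4 mice at an unadjusted p under 0.05, and their median LFC in water mice was 0.05. Fkbp4, whose product FKBP52 competes with FKBP51 for the GR complex, had 3174 ± 453 normalised counts in water + PBS and 2629 ± 214 in water + Dex mice, an LFC of -0.27 (adjusted p = 0.18), and in ZnSO4 mice an LFC of 0.04 (adjusted p = 0.88). The other TSC22 domain genes, Tsc22d1, Tsc22d2 and Tsc22d4, had LFCs of -0.06, -0.01 and 0.25 in water mice and of -0.17, 0.04 and -0.01 in ZnSO4 mice, and 0 of 3 were regulated, with 1 at an unadjusted p under 0.05 in water and 0 in ZnSO4 mice. Per length, Tsc22d1 lay above Tsc22d3 before Dex, at 20.5 against 14.3 RPKM in water mice, and below it after Dex, at 19.7 against 122 RPKM. DESeq2 also called 0 in these families. Beside these unadjusted counts stand 3623 of all 15938 genes in water mice and 4196 in ZnSO4 mice.

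Among the 4 other genes of the pyruvate dehydrogenase kinase family, Pdk1, Pdk2, Pdk3 and Bckdk, 0 were regulated with edgeR or DESeq2, with 1 at an unadjusted p under 0.05 with each drink. Pdk2 rose by an LFC of 0.53 (SE 0.13; adjusted p = 0.021) in water mice, below the cut-off of 0.8, and had an LFC of 0.28 (adjusted p = 0.18) in ZnSO4 mice. Pdk1 had LFCs of -0.08 and -0.11, and Pdk3 of 0.07 and 0.05. Of 8 genes of the pyruvate dehydrogenase complex and its phosphatases, the targets and opponents of the kinase, 0 were regulated in water mice, with 3 at an unadjusted p under 0.05 and 2 at an adjusted p under 0.05. These were Dlat, the acetyltransferase subunit, with an LFC of 0.72 (adjusted p = 0.0015), and Pdp1, the phosphatase that undoes the work of the kinase, with an LFC of -0.66 (adjusted p = 0.0028). In ZnSO4 mice both passed the cut-off, Dlat at 0.91 (adjusted p = 0.00026) and Pdp1 at -0.86 (adjusted p = 3e-04). The difference between the drinks did not pass the test for any of the 8.

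Of 12 genes around Ddit4 and mTORC1, 5 had an unadjusted p under 0.05 with Dex in water mice, and all 5 an adjusted p under 0.05. By both cut-offs 1 was upregulated and 0 were downregulated. This was Sesn1, a sestrin that lowers mTORC1 activity when amino acids are short, which went from 1503 ± 50.8 normalised counts in water + PBS to 6325 ± 134 in water + Dex mice, an LFC of 2.07 (SE 0.15; adjusted p = 6.3e-06). In ZnSO4 mice Sesn1 rose by an LFC of 2.03 (adjusted p = 6.6e-06) and Ddit4l was downregulated. Ddit4l, the paralogue of Ddit4, had few reads, with 11.4 ± 2.49 normalised counts in water + PBS, 9.48 ± 3.55 in water + Dex, 27.5 ± 6.76 in ZnSO4 + PBS and 11.7 ± 4.44 in ZnSO4 + Dex mice. Its LFC was -0.26 (adjusted p = 0.74) in water and -1.21 (adjusted p = 0.039) in ZnSO4 mice, and DESeq2 did not call it. The subunits of mTORC1 and its regulators Tsc1, Tsc2 and Rheb did not pass both cut-offs with either drink.

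The other BTB zinc finger genes, relatives of Zbtb16, gave few calls. Of 42 tested, 0 were upregulated and 1 was downregulated by Dex in water mice with edgeR, while DESeq2 called 1 in each direction. An unadjusted p under 0.05 was found for 16 of the 42, against 3623 of all 15938 genes. The gene that fell was Bcl6b, with 18.2 ± 1.44 normalised counts in water + PBS and 5.83 ± 1.31 in water + Dex mice, an LFC of -1.62 (adjusted p = 0.0088). In ZnSO4 mice Bcl6, a transcriptional repressor of lymphocytes, rose by 1.01 (adjusted p = 0.026), Bcl6b fell by 1.88 (adjusted p = 0.0014) and Hic1 by 0.81 (adjusted p = 0.011) on the log2 scale. Bcl6 also belongs to the next list, as does Sesn1. Kdr, 1 of 3 markers of blood vessel endothelium, the cells in which Bcl6b is known, also fell with Dex, by 0.96 in water mice on the log2 scale (adjusted p = 0.00037). Of the 3 markers only Kdr had an unadjusted p under 0.05 with Dex, with either drink. The 3 markers, Kdr included, summed to 86.4 to 117 CPM in water + PBS and 69.7 to 74.8 CPM in water + Dex mice. The part of that shift in the Bcl6b value was not tested.

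**Figure D3:**
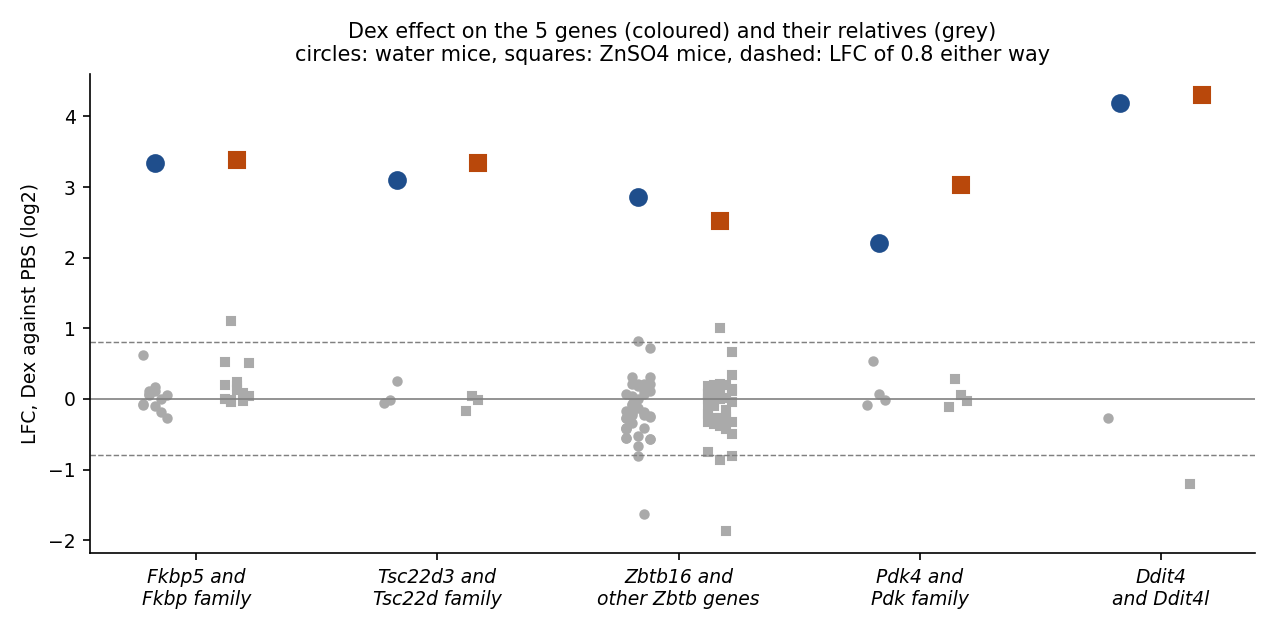
LFC of Dex against PBS (vertical axis, log2) for the 5 genes in colour and their relatives in grey, with circles for water mice, squares for ZnSO4 mice and dashed lines at an LFC of 0.8 in either direction. The 5 genes lie between 2.21 and 4.30, above every relative tested.

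A further list of 35 genes that glucocorticoids are known to induce, of which 34 were tested, responded in part. Dex upregulated 20 and lowered 0 in water mice, with a median LFC of 1.36 over the 34. In ZnSO4 mice it upregulated 25 and lowered 0, with a median of 1.61. Of all genes tested, Dex upregulated 2.79% in water mice and 3.41% in ZnSO4 mice. The largest LFCs in water mice were those of Pck1, the rate-limiting enzyme of gluconeogenesis, at 5.34 (SE 0.35; adjusted p = 3.7e-06), and Lcn2, an antibacterial protein that binds siderophores, at 4.90 (adjusted p = 5.2e-07). Hif3a, a member of the hypoxia-inducible factor family, followed at 4.58 (adjusted p = 5.9e-06). Rasd1, a small GTPase named for its induction by Dex, reached 3.82 (adjusted p = 7.9e-05) and Angptl4 3.34 (adjusted p = 0.00095). The LFC of Ddit4, 4.19, lay between those of Hif3a and Rasd1, with intervals that overlapped both, and that of Fkbp5, 3.34, was next to that of Angptl4.

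Other well-known targets in the list did not pass in water mice. Dusp1, a phosphatase that shuts off MAP kinases, had an LFC of 0.74 (adjusted p = 0.16) in water and rose by an LFC of 1.29 (adjusted p = 0.014) in ZnSO4 mice. Nfkbia, the inhibitor of NF-κB, had an LFC of 0.62 (adjusted p = 0.13) in water and rose by 1.14 (adjusted p = 0.0063) in ZnSO4 mice. Tnfaip3, which encodes the NF-κB inhibitor A20, had LFCs of -0.19 and -0.17, and Anxa1, the gene of annexin A1, of 0.03 and 0.06, and neither passed with either drink. These 4 were picked after their values were seen, as examples of genes outside the calls. With the interaction as the test 0 of the 34 differed between drinks, with 4 at an unadjusted p under 0.05, and DESeq2 called 0. By edgeR, 5 of the 34 were called with ZnSO4 in PBS mice, against 1.7% of all genes, and 2 in Dex mice, against 1.9%. In PBS mice Pck1 (LFC 1.77), the cell cycle inhibitor Cdkn1c (0.94) and the receptor kinase inhibitor Errfi1 (0.84) were higher with ZnSO4. Tat, a tyrosine aminotransferase (-3.33), and Tgm2, a transglutaminase (-1.15), were lower. After Dex, Tat (-1.98) and Tgm2 (-1.02) were lower with ZnSO4. By edgeR 0 of the 34 were higher then, with 7 at an unadjusted p under 0.05 in either direction, whereas DESeq2 called 1 higher. By edgeR Pck1 had an LFC of 1.05 in this comparison (interval 0.42 to 1.69; adjusted p = 0.068).

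**Figure D4:**
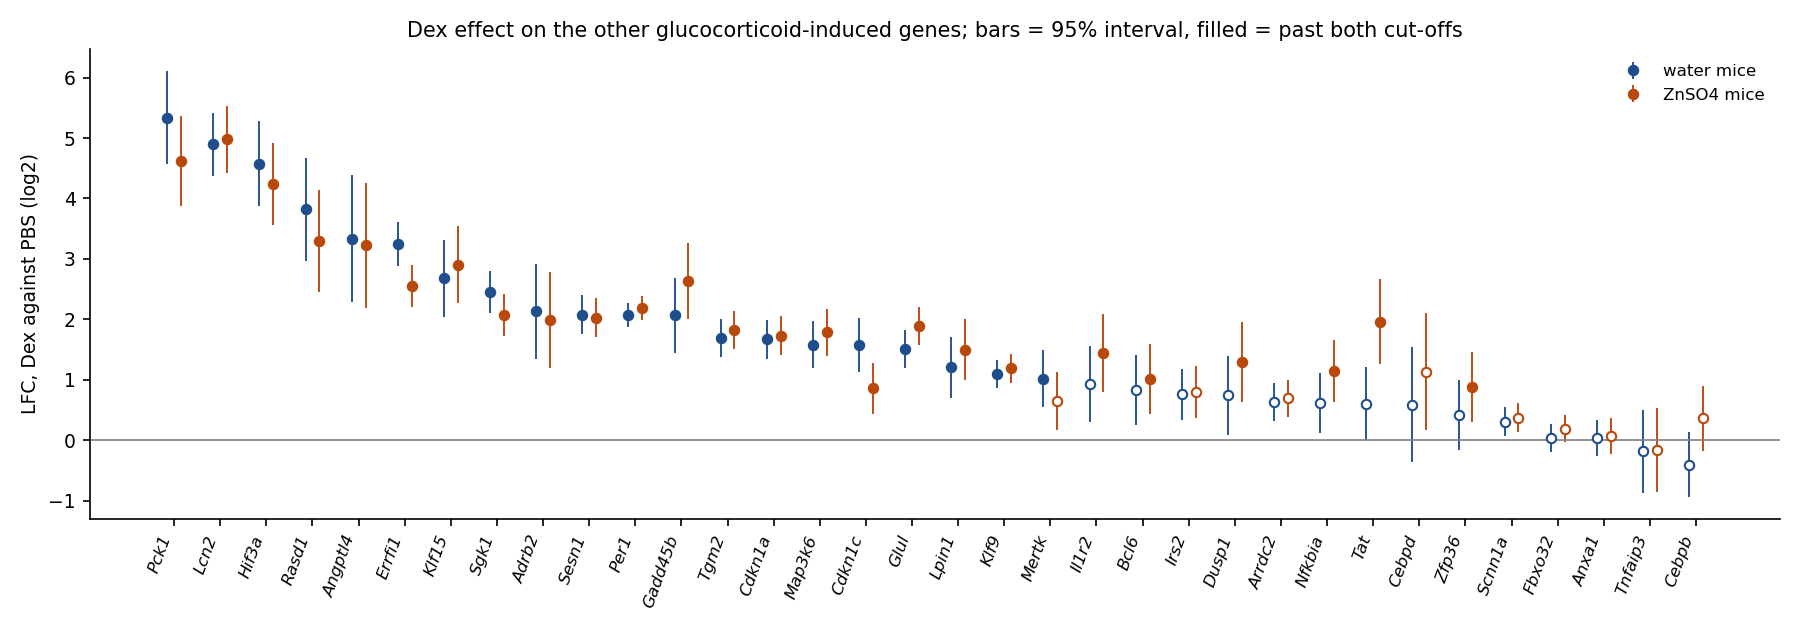
LFC of Dex against PBS (vertical axis, log2) with 95% intervals for 34 other glucocorticoid-induced genes, in water and in ZnSO4 mice, ordered by the LFC in water mice; filled points passed both cut-offs. The points run from 5.34 for Pck1 to -0.41 for Cebpb in water mice, and 20 are filled with water and 25 with ZnSO4.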

How the data were processed

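The RNA of 12 ilea was measured by RNA-seq. The authors deposited raw read counts per gene: per the study's methods, stranded single-end libraries were mapped to mm10 with hisat (2.0.4), counted with featureCounts without reads of more than 1 position, and tested with DESeq2. Trimmomatic and SAMtools are named in the submitters' processing notes. The annotation release and the strand setting are not given in the sources used here. Symbols, loci and exon lengths came from GENCODE vM21, which names 54809 of 54838 identifiers, and upstream sequences from RefSeq.

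The counts were analysed with edgeR 4.0.16 in R 4.3.3: filterByExpr (minimum count 10), TMM factors, 1 model of 4 group means, and quasi-likelihood tests with Benjamini-Hochberg adjustment over 15938 genes. Normalised counts are counts over effective library size times its mean. SE is the LFC over the root of F. The cut-offs, adjusted p 0.05 and LFC 0.8, are those of the study. P-values measure the spread between these mice, and whether mice shared a cage or litter is not given. Libraries of a group differed by more than sampling noise (chi-square per degree of freedom 8.30 to 45.3).

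The 5 genes, the lists and the tests were chosen with earlier results of these data known, so they give no independent support. Named were all 5 genes, their nearest 3 genes, set relatives, and the regulated genes of each list with the largest LFC in water mice (up to 5 for the other glucocorticoid-induced genes, 3 for each other list), and genes named for another reason are marked as such. Of 45 BTB zinc finger genes listed, 44 were matched. Markers of cell types that the tissue can hold were fixed as lists. Alternatives were DESeq2 1.42.0, RLE and upper-quartile factors, other filters, a replicate block, only the groups compared, glmTreat, other LFC cut-offs, a B cell marker covariate and leaving out each library. The procedure was tested on simulated data. Figures were drawn with matplotlib.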

Additional observations from a re-analysis of the deposited data

How the results depend on the processing

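Fkbp5, Tsc22d3, Zbtb16 and Ddit4 were called upregulated by Dex with both drinks under all 23 alternatives, and Pdk4 under all 23 in ZnSO4 mice and 18 of 23 in water mice. The count in water mice was 4 or 5 of 5, and the counts for ZnSO4 and the interaction were 0 of 5 throughout. Of the other glucocorticoid-induced genes, 17 to 23 were upregulated in water mice and 17 to 28 in ZnSO4 mice. The named genes of the lists lost no call by Dex in water mice when a library was left out, and Bcl6b lost its call under glmTreat (adjusted p = 0.21).

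No pairing of mice by replicate number was seen. Residuals of equal numbers correlated at a median of -0.06 over 18 pairs of libraries, from -0.359 to 0.457, against 0.02 over 36 other pairs. With so few libraries this does not show whether mice of a number shared handling. With the replicate block the calls of the 5 genes were the same, with 5 of 5 in both drinks, and the LFC of Pdk4 in water mice was 2.35. The block turned the LFC of ZnSO4 over both injections to 0.031 for Pdk4. Upper-quartile factors turned that of ZnSO4 in Dex mice to 0.030 for Fkbp5. The B cell covariate turned that of ZnSO4 in PBS mice to 0.019 for Ddit4 and in Dex mice to -0.0023 for Zbtb16. None of these was called, and the cause was not tested.

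Leaving out 1 library turned the sign of uncalled LFCs of ZnSO4. In PBS mice they ran from -0.15 to 0.016 (Fkbp5), -0.28 to 0.046 (Tsc22d3), -0.013 to 1.09 (Zbtb16), -0.89 to 0.83 (Pdk4) and -0.17 to 0.26 (Ddit4). In Dex mice they ran from -0.088 to 0.070 (Fkbp5), -0.018 to 0.16 (Tsc22d3), -0.0090 to 0.38 (Zbtb16) and -0.0098 to 0.12 (Ddit4). Over both injections they ran from -0.082 to 0.010 (Fkbp5), -0.11 to 0.058 (Tsc22d3), -0.27 to 0.59 (Pdk4) and -0.051 to 0.16 (Ddit4). Interactions ran from -0.030 to 0.13 (Fkbp5), -0.95 to 0.16 (Zbtb16), -0.47 to 1.24 (Pdk4) and -0.20 to 0.23 (Ddit4). In water + PBS mice the CV was 102% for Pdk4 and 66.6% for Zbtb16, against 7.91% and 10.9% from counting alone.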
